A study of Mus musculus with 6 samples.

Results

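The proteasome is the protease complex that breaks down most ubiquitin-tagged proteins of a cell, and the genes described here encode its parts, its regulators and its assembly factors. They were taken by symbol, as every gene named Psma to Psmg followed by a digit, which gave 51 of the 22322 genes listed. RNA of epididymal white fat was sequenced in 3 libraries of a CD44 knockout (genotype CD44-KO, here CD44 KO) and 3 of wild type mice, each taken as 1 mouse although the labels do not say so, as part of a study of what CD44, a hyaluronan receptor of the cell surface, does in white fat. Both genotypes had been fed a high fat diet, for 17 weeks, to make them obese, so no library comes from mice on another diet. How lean or obese each mouse was is not known here. The labels give neither the age of the mice nor how the allele was made.

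The core particle of the proteasome (20S) is a barrel of alpha and beta rings, and the beta subunits encoded by Psmb5, Psmb6 and Psmb7 hold its active sites. In leukocytes, and in other cells under interferon-gamma, the subunits encoded by Psmb8, Psmb9 and Psmb10 take those places in newly made particles, and with the activator encoded by Psme1 and Psme2 they alter which peptides are cut for MHC class I molecules. The regulatory particle (19S) binds the ubiquitin-tagged protein, unfolds it and feeds it into the barrel.

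Of the 51 genes, 5 are immunoproteasome genes (Psmb8, Psmb9, Psmb10, Psme1 and Psme2) and 41 encode constitutive parts or factors. Psma8 and Psmb11 encode subunits restricted to testis and to thymus, and Psme2b is a copy of Psme2. Psmc3ip, which encodes a meiotic recombination factor, and Psme3ip1, whose product binds that of Psme3, match the pattern without being subunit genes.

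The libraries held 15543317 to 18765009 expected counts each. Cd44 had 28, 50 and 34 expected counts in CD44 KO replicates 1 to 3 and 3091, 10580 and 6000 in wild type replicates 1 to 3, as the labels say. Adipoq, the adiponectin gene of mature adipocytes, had 2427 to 3481 CPM (counts scaled by TMM to a common library total) in CD44 KO and 702 to 2471 CPM in wild type. Of 8 mature adipocyte markers 7 had a higher estimate in CD44 KO and 1, the leptin gene Lep, a lower one. Lep had 1147, 755 and 708 CPM in CD44 KO and 4475, 1834 and 2471 CPM in wild type. CD44 KO replicate 2 stood apart: 6 epididymis markers summed to 11946 CPM there, to 12.8 and 6.86 CPM in the other CD44 KO libraries and to 0.808 to 1.57 CPM in wild type. Macrophage markers (10) summed to 4133, 262 and 842 CPM in CD44 KO and 3839.6, 8406 and 6616 CPM in wild type, so that CD44 KO replicate 1 lay within the wild type range. In bulk tissue, fewer cells of a type and less RNA per cell cannot be told apart.

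No proteasome gene passed the test between the genotypes, while most constitutive genes had lower values in CD44 KO fat. Of the 51 genes 50 could be tested with edgeR's quasi-likelihood test, and at a Benjamini-Hochberg adjusted p under 0.05 over 13829 genes 0 were lower and 0 higher. By that rule 0.882% of all genes tested were lower, 1.74% higher and 2.62% either. Before adjustment, 8 of the 41 constitutive genes (19.5%) had a p under 0.05 and were lower, and 0 were higher, where 14.7% of all genes were lower and 16.3% higher. Counted in either direction, constitutive genes with such a p numbered 5 when CD44 KO replicate 2 was left out, 5 when it was CD44 KO replicate 3, and 4 when it was wild type replicate 3. Over all genes tested the count was 4292 in the full fit and 3383, 2810 and 2315 in those 3 fits, so it was lower there as well. A p that misses the threshold does not show that a gene was equal in both genotypes.

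By CPM, the 3 CD44 KO libraries lay below all 3 wild type libraries for 18 of the 41 constitutive genes (43.9%) and above them for 1. The shares of all genes tested were 18.1% and 19.7%. Overlap of single genes was judged by CPM unless FPKM is named. Log2 fold changes (CD44 KO over wild type) were negative for 32 of the 41, against 47.8% of all genes tested. The median of the 41 was -0.24 and that of all genes tested was 0.031. When each library was left out in turn, the median of the 41 stayed between -0.31 and -0.18, and it was -0.18 without CD44 KO replicate 2.

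The 5 immunoproteasome genes were spread around 0. Their log2 fold changes ran from -0.39 to 0.32 with a median of -0.13, 3 negative and 2 positive. The genotypes overlapped for all 5, and 0 of them had a p under 0.05 before adjustment. Their median turned positive without CD44 KO replicate 2 (0.0029) or wild type replicate 1 (0.031). Whether the constitutive and the immunoproteasome genes differ from each other was not tested.

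**Figure D1:**
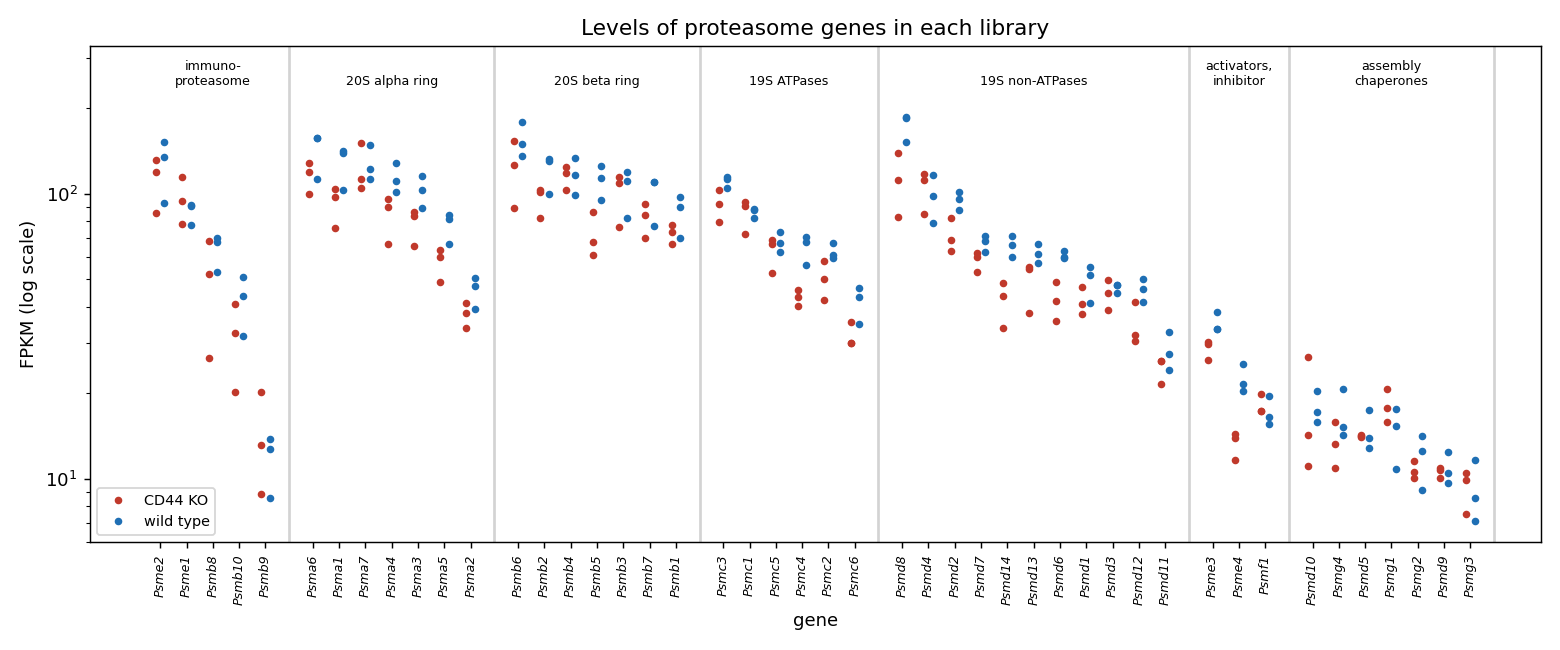
FPKM (log scale) of the 5 immunoproteasome and 41 constitutive genes by role, ordered by wild type mean within a role, with 1 point per library and CD44 KO left of wild type. Assembly chaperone genes are among the lowest, at 7.09 to 26.8 FPKM, and Psmb9 is the lowest immunoproteasome gene in every library, at 8.58 to 20.2 FPKM.

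Levels can be compared between genes as FPKM, which the authors scaled by transcript length. Summed over the 41 constitutive genes they came to 2645, 2078 and 2446 FPKM in CD44 KO replicates 1 to 3 and 2969, 2639.5 and 3168 FPKM in wild type replicates 1 to 3. The lowest wild type sum, of replicate 2, was just below the highest CD44 KO sum, of replicate 1. The 5 immunoproteasome genes summed to 311, 219 and 376 FPKM in CD44 KO and 375, 264 and 351 FPKM in wild type, with CD44 KO replicate 3 and wild type replicate 1 nearly level at the top and CD44 KO replicate 2 the lowest. Within the alpha ring, Psma2 was the lowest gene in each library, at 33.7 to 41.2 FPKM in CD44 KO and 39.3 to 50.8 FPKM in wild type. Psma6 had 99.5 to 129 FPKM in CD44 KO and 113 to 157 FPKM in wild type.

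In the alpha ring, whose outer face gates entry to the barrel, 5 of 7 genes had no overlap between the genotypes, all lower in CD44 KO. Of all genes tested, 18.1% were lower without overlap. Psma1 had 123, 96.9 and 117 CPM in CD44 KO and 167, 123 and 164 CPM in wild type, with log2 fold change -0.43, SE 0.19 and edgeR adjusted p 0.170. Psma5 had 77.5, 64.7 and 74.5 CPM in CD44 KO and 99.1, 82.5 and 102 CPM in wild type, with log2 fold change -0.39, SE 0.15 and edgeR adjusted p 0.146. In both genes CD44 KO replicate 2 was the lowest library, and for Psma1 the nearest libraries of the genotypes differed by under 1 CPM. Psma4 had 109, 82.3 and 104 CPM in CD44 KO and 126, 116 and 144 CPM in wild type, with a log2 fold change of -0.39. Psma2 had 91.8, 81.9 and 87.7 CPM in CD44 KO and 104, 95.3 and 118 CPM in wild type (-0.28), and Psma3 stood at -0.33 without overlap.

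The remaining alpha ring genes overlapped. Psma6 had 132, 109 and 125 CPM in CD44 KO and 160.4, 117 and 159 CPM in wild type (-0.25). Psma7 had 102, 147 and 96.3 CPM in CD44 KO and 109.8, 103 and 133 CPM in wild type, and its log2 fold change was 0.0012. CD44 KO replicate 2, the library with epididymis transcripts, had the highest value of Psma7, and without it the log2 fold change was -0.21. The part of those transcripts in this value was not tested.

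In the beta rings 1 of 7 genes (14.3%) was lower without overlap, against 18.1% of all genes tested. It was the active-site gene Psmb5, which encodes the chymotrypsin-like site. Psmb5 (ENSMUSG00000022193, chromosome 14, 54614119 to 54618022 of GRCm38, minus strand) had 76.6, 58.6 and 61.2 CPM in CD44 KO and 100.5, 85.1 and 110.1 CPM in wild type. All CD44 KO libraries were lower than all wild type libraries, with a log2 fold change of -0.59, a 95% interval of -1.07 to -0.11 and an edgeR adjusted p of 0.0948. Psmb6, the caspase-like site, had 121, 75.9 and 102 CPM in CD44 KO and 106, 119 and 139.8 CPM in wild type, with log2 fold change -0.29, SE 0.21 and edgeR adjusted p 0.370. Psmb7, the trypsin-like site, had 106, 86.7 and 98.3 CPM in CD44 KO and 125, 89.2 and 125 CPM in wild type, with log2 fold change -0.22, SE 0.19 and edgeR adjusted p 0.434. CD44 KO replicate 2 was the lowest library of these 3 genes, and Psmb6 was higher in CD44 KO replicate 1 than in wild type replicate 1. Its fractional expected counts and its overlap with Nek6 on the other strand make Psmb7 uncertain.

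The structural beta genes Psmb2, Psmb1, Psmb3 and Psmb4 all overlapped between the genotypes. Psmb2 had 86.1, 75.3 and 88.9 CPM in CD44 KO and 110.3, 85.8 and 111 CPM in wild type (-0.30). Psmb1 had 135, 126 and 129.9 CPM in CD44 KO and 155, 123 and 168 CPM in wild type (-0.19). Psmb3 and Psmb4 were near equal, with log2 fold changes of -0.015 and 0.033. Psmb3 had 86.6, 62.6 and 83.8 CPM in CD44 KO and 83.5, 62.7 and 89.3 CPM in wild type. Psmb4 had 145, 130.03 and 141 CPM in CD44 KO and 136, 117 and 155 CPM in wild type.

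The regulatory particle has 6 ATPase genes, whose products form the ring that unfolds the substrate, and 4 of them were lower in CD44 KO without overlap. The share over all genes tested was 18.1%. Psmc4 (ENSMUSG00000030603, chromosome 7, 28041707 to 28050101 of GRCm38, minus strand) had 65.3, 62.1 and 62.7 CPM in CD44 KO and 99.99, 80.7 and 95.7 CPM in wild type. The CD44 KO libraries lay within 4 CPM of each other, and the log2 fold change was -0.54, with a 95% interval of -0.93 to -0.15 and an edgeR adjusted p of 0.0781. Psmc6 had 72.5, 66.7 and 64.0 CPM in CD44 KO and 76.8, 88.7 and 98.1 CPM in wild type, with log2 fold change -0.38, SE 0.15 and edgeR adjusted p 0.146. Psmc2 had 102, 80.9 and 90.1 CPM in CD44 KO and 107.2, 105 and 117 CPM in wild type (-0.27). Psmc3, which overlaps Slc39a13 on the other strand, had 142, 114 and 131 CPM in CD44 KO and 162, 144 and 153 CPM in wild type (-0.24). In the last pair, Psmc5 and Psmc1, the genotypes overlapped. Psmc5 had 86.9, 74.1 and 91.0 CPM in CD44 KO and 94.9, 82.3 and 86.4 CPM in wild type (-0.065). Psmc1 had 147, 123 and 145 CPM in CD44 KO and 139, 130.4 and 137 CPM in wild type (0.035).

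Among the 11 other subunit genes of the regulatory particle 10 were negative and 6 were lower without overlap. Over all genes tested, 47.8% were negative and 18.1% were lower without overlap. Psmd14 (ENSMUSG00000026914, chromosome 2, 61711694 to 61800376 of GRCm38, plus strand), which encodes the deubiquitinase that takes the ubiquitin chain off the substrate, had 74.3, 55.9 and 67.9 CPM in CD44 KO and 100.2, 92.0 and 107.6 CPM in wild type, with log2 fold change -0.60, SE 0.16 and edgeR adjusted p 0.0831. Psmd6 (ENSMUSG00000021737, chromosome 14, 14112174 to 14120984 of GRCm38, minus strand), of the lid of the particle, had 67.5, 52.8 and 58.7 CPM in CD44 KO and 81.4, 82.9 and 85.8 CPM in wild type, with log2 fold change -0.48, SE 0.14 and edgeR adjusted p 0.0948. Psmd8 (ENSMUSG00000030591, chromosome 7, 29174188 to 29180701 of GRCm38, minus strand), also of the lid, had 191, 123 and 157 CPM in CD44 KO and 208, 256 and 254 CPM in wild type, with log2 fold change -0.61, SE 0.21 and edgeR adjusted p 0.118. CD44 KO replicate 2 was the lowest library of all 3 genes, and the wild type libraries of Psmd6 lay within 5 CPM. The others without overlap were Psmd2, Psmd12 and Psmd13, at -0.39, -0.37 and -0.29.

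At the other end of this role stood Psmd4, Psmd3 and Psmd11. Psmd4, which encodes a ubiquitin receptor, had 152, 119 and 148 CPM in CD44 KO and 149.9, 104 and 127 CPM in wild type, with log2 fold change 0.14, SE 0.19 and edgeR adjusted p 0.642. Psmd3, a lid gene, had 94.8, 89.3 and 107.8 CPM in CD44 KO and 101, 96.3 and 99.4 CPM in wild type (-0.024). Psmd11, another lid gene, had 56.6, 57.4 and 67.6 CPM in CD44 KO and 55.4, 70.4 and 62.0 CPM in wild type (-0.049). All 3 overlapped, and CD44 KO replicate 3 was above all wild type libraries for Psmd3.

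Psme4 had the lowest p of the 51 genes. It encodes a large activator that caps the core particle without using ATP (ENSMUSG00000040850, chromosome 11, 30771726 to 30880361 of GRCm38, plus strand). It had 81.4, 94.4 and 64.3 CPM in CD44 KO and 142, 131 and 122 CPM in wild type. Each CD44 KO library was below each wild type library, with a log2 fold change of -0.72, a 95% interval of -1.22 to -0.21 and an edgeR adjusted p of 0.0761. CD44 KO replicate 3 was the lowest library here and replicate 2 the highest of CD44 KO, unlike for Psmb5, Psmd14, Psmd6 and Psmd8. Psme3, the gene of the nuclear activator, had 77.1, 71.8 and 78.5 CPM in CD44 KO and 93.7, 88.7 and 84.5 CPM in wild type, with log2 fold change -0.23, SE 0.13 and edgeR adjusted p 0.249, also without overlap. Psmf1, the gene of a protein named as a proteasome inhibitor, had 36.4, 38.3 and 41.9 CPM in CD44 KO and 38.5, 33.3 and 32.3 CPM in wild type, with log2 fold change 0.16, SE 0.14 and edgeR adjusted p 0.435.

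With DESeq2 in place of edgeR, 6 of the 51 genes were lower at an adjusted p under 0.05 and 0 higher, where 9.41% of all genes with an adjusted p were lower and 9.65% higher. They were Psmc4 (DESeq2 adjusted p 0.00598), Psme4 (0.00738), Psmd14 (0.0131), Psmb5 (0.0268), Psmd6 (0.0281) and Psmd8 (0.0498). The authors' deposited table has 5 of these, all but Psmd8, lower at an FDR under 0.05 and 0 of the 51 higher. Of all its 22322 genes, silent ones included, 5.94% are lower and 6.07% higher. Of the 13829 genes tested by edgeR, it has 1303 lower and 1244 higher. In the authors' deposited table the FDR is 0.00710 for Psmc4, 0.00876 for Psme4, 0.0156 for Psmd14, 0.0318 for Psmb5, 0.0334 for Psmd6 and 0.0592 for Psmd8.

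The 7 assembly chaperone genes, whose products help build the particle and leave it, had a median log2 fold change of 0.029, with 4 positive and 3 negative. Psmd9, a chaperone of the ATPase ring, was the 1 constitutive gene higher in CD44 KO without overlap, with 27.9, 25.6 and 27.97 CPM in CD44 KO and 24.8, 21.1 and 25.3 CPM in wild type, with log2 fold change 0.20, SE 0.14 and edgeR adjusted p 0.358. By FPKM the genotypes overlapped for Psmd9, with 10.86, 10.08 and 10.7 FPKM in CD44 KO and 12.38, 9.65 and 10.47 FPKM in wild type. Psmd9 shares bases with Hpd on the other strand. Psmg1, which helps assemble the alpha ring, had 18.3, 17.6 and 21.7 CPM in CD44 KO and 18.1, 11.3 and 15.6 CPM in wild type, with log2 fold change 0.36, SE 0.22 and edgeR adjusted p 0.294. Psmg4 had 6.71, 6.01 and 8.16 CPM in CD44 KO and 7.19, 7.92 and 10.6 CPM in wild type (-0.30). The genotypes overlapped for Psmg1 and Psmg4, and also for the nearly equal Psmg3, Psmg2 and Psmd5. Psmg3 had 9.08, 7.03 and 8.29 CPM in CD44 KO and 7.37, 6.20 and 9.86 CPM in wild type (0.058). Psmg2 had 12.2, 11.4 and 11.3 CPM in CD44 KO and 14.8, 9.64 and 12.99 CPM in wild type (-0.10). Psmd5 had 43.0, 50.7 and 41.1 CPM in CD44 KO and 49.1, 44.2 and 46.5 CPM in wild type (-0.052). Psmd10 encodes the chaperone gankyrin. It had 19.9, 40.8 and 15.8 CPM in CD44 KO and 24.1, 22.6 and 28.4 CPM in wild type (0.029). As with Psma7, its high library was CD44 KO replicate 2, and without that library the log2 fold change was -0.48.

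**Figure D2:**
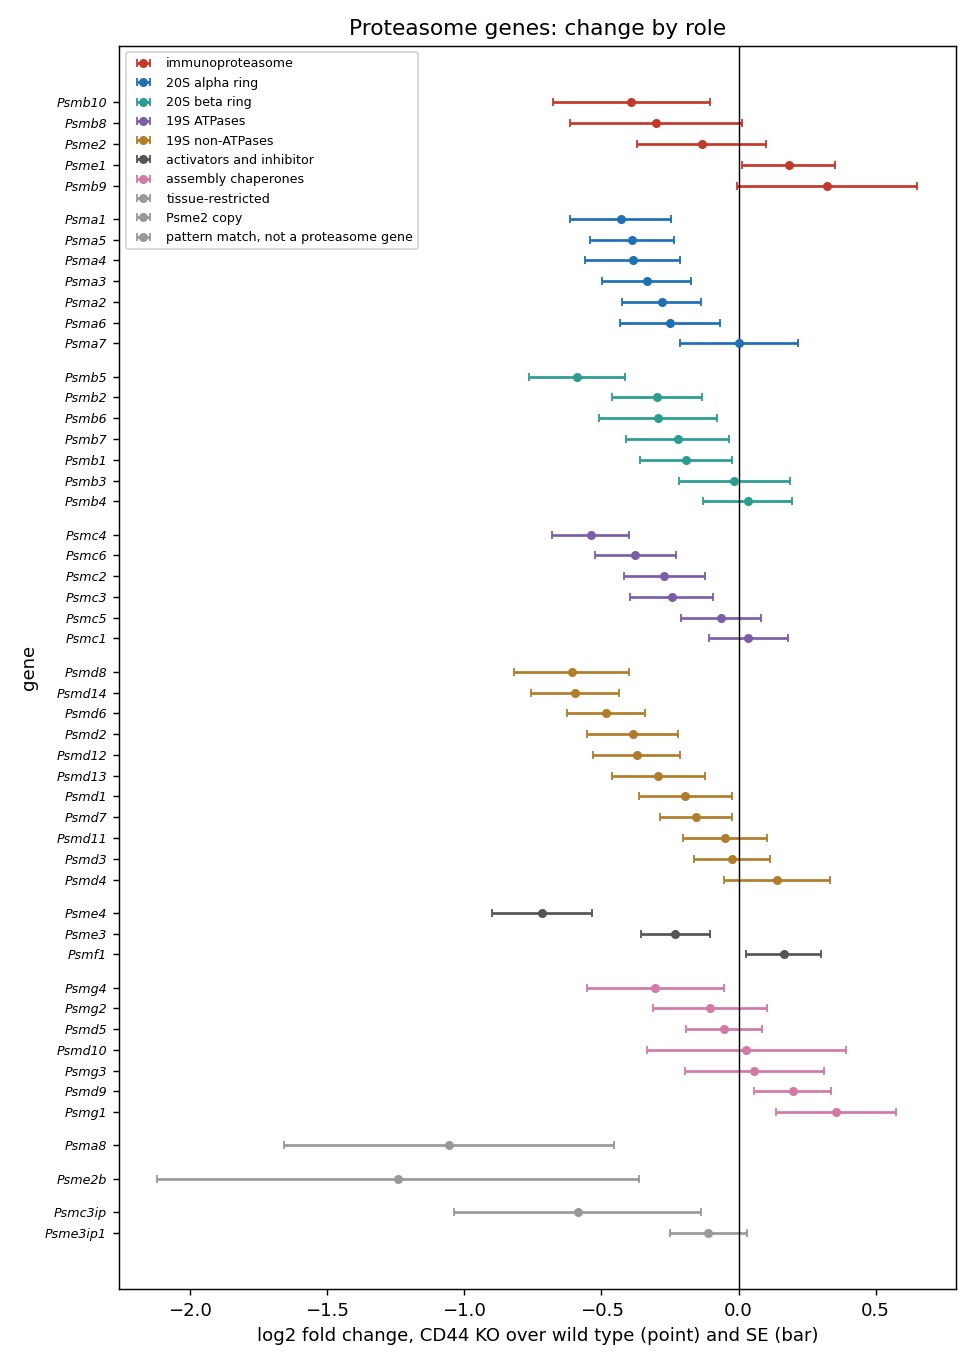
Log2 fold change (CD44 KO over wild type, edgeR, points) and SE (bars) of the 50 genes tested, by role. Core and regulatory particle genes lie mostly left of 0, from -0.61 to 0.14, the immunoproteasome and assembly chaperone genes lie on both sides, and Psma8, Psme2b and Psmc3ip, which have few counts, have wide bars.

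The lower constitutive values were unevenly shared between libraries. Relative to each gene's mean log2 CPM over the 6 libraries, the median constitutive gene stood at -0.030, -0.23 and -0.094 in CD44 KO replicates 1 to 3 and at 0.12, -0.014 and 0.23 in wild type replicates 1 to 3. CD44 KO replicate 2 was the lowest library for 26 of the 41 genes, and wild type replicate 3 the highest for 18. Wild type replicate 2 was close to CD44 KO replicate 1 and was the lowest library for 7 genes. In CD44 KO the macrophage sums above had the same order of libraries as these medians, with replicate 2 lowest and replicate 1 highest, while in wild type replicate 2 had the highest macrophage sum and the lowest median. Mature adipocyte markers (8) summed to 28048, 23915 and 33937 CPM in CD44 KO and 27926, 10553 and 17766 CPM in wild type. Of 6 fibroblast and progenitor markers 5 were negative and 4 lower without overlap, where the shares of all genes tested were 47.8% and 18.1%. The 6 markers summed to 1333, 567 and 1099.6 CPM in CD44 KO and 1863, 2477 and 2303 CPM in wild type. That sum did not overlap between the genotypes, and its CD44 KO libraries had the order of the proteasome medians. Pi16, a progenitor marker and the 1 gene called in any of the lists, had 13.8, 5.53 and 11.4 CPM in CD44 KO and 32.4, 45.0 and 37.0 CPM in wild type, with log2 fold change -1.89, SE 0.35 and edgeR adjusted p 0.0499. The part of these cell types in the proteasome values was not tested.

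**Figure D3:**
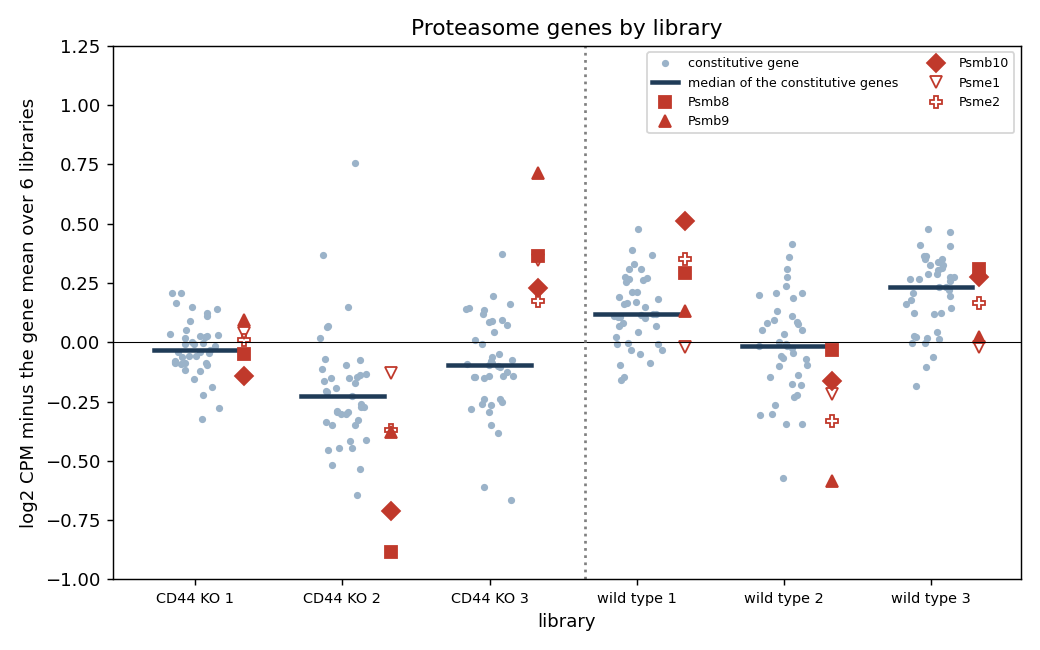
Log2 CPM minus the gene's mean over 6 libraries, for the 41 constitutive genes (points, with their median as a bar) and the 5 immunoproteasome genes (red symbols), CD44 KO left of wild type. The constitutive median is lowest in CD44 KO replicate 2, at -0.23, and the 5 immunoproteasome genes are all above their means in CD44 KO replicate 3 and all below them in replicate 2 of both genotypes.

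Among the immunoproteasome genes the libraries of CD44 KO differed widely from each other. Psmb8 (ENSMUSG00000024338, chromosome 17, 34197721 to 34201454 of GRCm38, plus strand), whose product replaces that of Psmb5, had 53.3, 29.9 and 71.1 CPM in CD44 KO and 67.5, 54.0 and 68.5 CPM in wild type. CD44 KO held both the lowest and the highest library, and the log2 fold change was -0.30, with a 95% interval of -1.17 to 0.57 and an edgeR adjusted p of 0.532. Leaving out CD44 KO replicate 2 gave -0.027, and leaving out CD44 KO replicate 3 gave -0.61. Psmb9 (ENSMUSG00000096727, chromosome 17, 34181987 to 34187764 of GRCm38, minus strand), the counterpart of Psmb6, had 17.3, 12.4 and 26.5 CPM in CD44 KO and 17.7, 10.8 and 16.4 CPM in wild type. Its log2 fold change was 0.32, with a 95% interval of -0.59 to 1.24 and an edgeR adjusted p of 0.522, and it was -0.016 without CD44 KO replicate 3. Psmb10 (ENSMUSG00000031897, chromosome 8, 105935735 to 105938444 of GRCm38, minus strand), the counterpart of Psmb7, had 42.0, 28.3 and 54.3 CPM in CD44 KO and 66.1, 41.3 and 56.0 CPM in wild type. Its log2 fold change was -0.39, with a 95% interval of -1.18 to 0.40 and an edgeR adjusted p of 0.370. Leaving out CD44 KO replicate 2 gave -0.18, leaving out wild type replicate 1 gave -0.22, and leaving out CD44 KO replicate 3 gave -0.64. For each of these genes CD44 KO replicate 2 was the lowest and replicate 3 the highest CD44 KO library, and wild type replicate 2 the lowest of wild type.

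The activator genes had the same order of the CD44 KO libraries. Psme1 (ENSMUSG00000022216, chromosome 14, 55578123 to 55581529 of GRCm38, plus strand) had 102, 91.1 and 127 CPM in CD44 KO and 98.2, 85.7 and 98.2 CPM in wild type, with log2 fold change 0.18, SE 0.17 and edgeR adjusted p 0.485. Without CD44 KO replicate 3 its log2 fold change was 0.035. Psme2 (ENSMUSG00000079197, chromosome 14, 55587441 to 55591113 of GRCm38, minus strand), 5911 bases from Psme1, had 113, 86.9 and 126 CPM in CD44 KO and 143, 89.1 and 126 CPM in wild type, with log2 fold change -0.13, SE 0.23 and edgeR adjusted p 0.716. The expected counts of Psme2 and of its copy Psme2b were fractional in all 6 libraries, so the division of reads between them is uncertain. Psme2b had 13.9, 10.1 and 3.82 expected counts in CD44 KO and 5.15, 50.7 and 19.4 in wild type. Psmb9 overlaps Tap1, a peptide transporter gene on the other strand, by 212 bases, and without strand information reads from there cannot be told apart.

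Setting an inducible gene against its constitutive counterpart within a library needs no scaling between libraries. Psmb8 made up 37.8%, 30.3% and 50.1% of the summed FPKM of Psmb8 and Psmb5 in CD44 KO replicates 1 to 3 and 37.2%, 35.9% and 35.8% in wild type replicates 1 to 3. The wild type libraries lay within 2 percentage points, and the CD44 KO libraries lay on both sides of them. The mean log2 ratio differed by 0.17 (exact two-sided permutation p 0.7), and by -0.15 without CD44 KO replicate 3. Psmb9 made up 7.91%, 9.04% and 13.8% with Psmb6 in CD44 KO and 9.25%, 5.42% and 6.61% in wild type, a difference in log2 ratio of 0.57 (exact permutation p 0.3), which ran from 0.31 to 0.80 when 1 library was left out. Psmb10 made up 26.0%, 22.4% and 32.8% with Psmb7 in CD44 KO and 31.8%, 29.1% and 28.4% in wild type, a difference of -0.21 (exact permutation p 0.5), which became -0.032 with CD44 KO replicate 2 left out and -0.41 with CD44 KO replicate 3 left out. In each pair the genotypes overlapped, and the inducible gene was the lower by FPKM in all libraries but CD44 KO replicate 3, where Psmb8 and Psmb5 were level.

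For the activators, Psme1 made up 75.8%, 75.0% and 79.4% of the summed FPKM of Psme1 and Psme3 in CD44 KO and 70.3%, 69.8% and 72.9% in wild type. All CD44 KO libraries were above all wild type libraries, at 76.7% ± 2.38 in CD44 KO and 71.0% ± 1.67 in wild type (SD, n = 3 each). The difference in log2 ratio was 0.43 (exact two-sided permutation p 0.1, the smallest that 3 against 3 libraries allow), and the p was 0.5 after Benjamini-Hochberg adjustment over the 5 ratios. Psme2 made up 79.8%, 76.6% and 81.6% with Psme3 in CD44 KO and 79.7%, 73.5% and 79.9% in wild type, a difference of 0.14 (exact permutation p 0.6). Both of these ratios have Psme3, which was lower in CD44 KO without overlap, as their other member. The adjusted p of the 4 other ratios was 0.7.

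**Figure D4:**
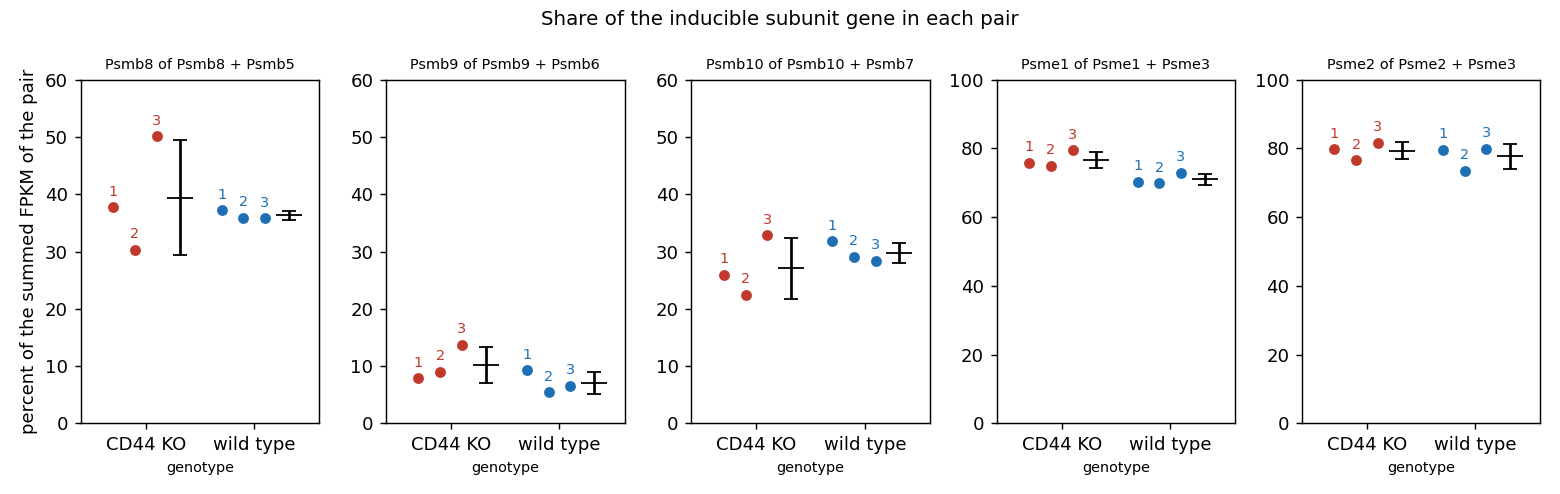
Share of the inducible gene in the summed FPKM of its pair, in percent, with 1 numbered point per library and the mean and SD beside them, CD44 KO left of wild type. Psme1 with Psme3 is the pair whose genotypes do not overlap, and CD44 KO replicate 3 is the highest CD44 KO library in all 5 pairs.

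Genes of MHC class I loading, the use to which immunoproteasome peptides are put, gave 0 calls by edgeR among 14, with 8 negative, 6 positive and a median log2 fold change of -0.077. Their summed level was lower in CD44 KO without overlap, with 5507, 6085 and 6059.9 CPM in CD44 KO and 8369, 6934 and 7604 CPM in wild type. B2m and the class I heavy chain genes H2-D1 and H2-K1 are the members of highest mean CPM in both genotypes. H2-K1, chosen after its values were seen, overlapped between the genotypes, as did B2m, so the sum does not describe the list as a whole. H2-D1, a class I heavy chain gene chosen after its values were seen, had 1712, 1269 and 1910.2 CPM in CD44 KO and 2209, 2084 and 2127 CPM in wild type (-0.39), also without overlap. Nlrc5, which drives class I genes, had 27.1, 24.8 and 44.0 CPM in CD44 KO and 23.8, 17.3 and 19.4 CPM in wild type, with log2 fold change 0.66, SE 0.26 and edgeR adjusted p 0.146, without overlap. Calr, B2m and Irf1 overlapped between the genotypes, at -0.53, -0.46 and 0.60. The transporter genes Tap1 and Tap2, chosen after their values were seen because they lie 495 and 2072 bases from Psmb8, stood at 0.25 and 0.42. Tap2 had 56.4, 53.5 and 105 CPM in CD44 KO and 63.2, 52.0 and 44.7 CPM in wild type, and CD44 KO replicate 3 was its highest library, as for Psmb8 and Psmb9.

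Of 24 interferon-gamma response genes 23 were tested and 0 passed, with 8 negative, 15 positive and a median log2 fold change of 0.44. CD44 KO replicate 3 was the highest library for each positive member but Jak2, which is named after its values were seen. The summed level of the 24 genes was lower in CD44 KO without overlap, opposite in sign to that median. It was 1787, 1221 and 2269 CPM in CD44 KO and 3102, 2398 and 2672 CPM in wild type. Cd74, the member of highest mean CPM in both genotypes, had 726, 156 and 599 CPM in CD44 KO and 1787, 1236 and 1464 CPM in wild type. The lower sum is largely that of Cd74 and does not describe the other members. Jak1, a kinase of the receptor, had 186, 172 and 146 CPM in CD44 KO and 225, 297 and 252 CPM in wild type, with log2 fold change -0.62, SE 0.18 and edgeR adjusted p 0.0948. Ifngr2, a receptor chain gene, Cd74, of the MHC class II pathway, and Irf8, a factor of myeloid cells, stood at -1.12, -1.60 and -1.76 with edgeR adjusted p of 0.104, 0.119 and 0.125. Those 4 genes, named as those of lowest p, had no overlap and were lower in CD44 KO. Among the 23 tested, 5 were lower and 3 higher without overlap, where the shares of all genes tested were 18.1% and 19.7%. Tgtp1, an interferon-induced GTPase gene chosen after its values were seen, had 12.9, 14.7 and 76.9 CPM in CD44 KO and 11.7, 6.47 and 7.98 CPM in wild type, with its highest value again in CD44 KO replicate 3. Ifng itself was not tested, with 2, 0 and 1 expected counts in CD44 KO and 0 in each wild type library.

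The immunoproteasome genes and the macrophage markers ordered the libraries differently in part, while CD44 KO replicate 2 was the lowest CD44 KO library of both. CD44 KO replicate 3, the highest library for Psmb8 and Psmb9, had a macrophage sum of 842 CPM, below every wild type library. Wild type replicate 2, with the highest macrophage sum, was the lowest wild type library for all 5 immunoproteasome genes. T and NK cell markers (10, of which 8 were negative and 0 passed) summed to 11.3, 3.90 and 16.1 CPM in CD44 KO and 22.0, 10.8 and 20.6 CPM in wild type. In both genotypes replicate 2 was the lowest library of that sum, as it was for the 5 immunoproteasome genes. The mature adipocyte sum given above also had replicate 2 as the lowest library of each genotype, and CD44 KO replicate 3 as the highest of all. Fabp4, chosen after its values were seen, was the member of highest mean CPM in that sum in both genotypes. Lep, on the same list, was lowest in CD44 KO replicate 3. The part of macrophages, of T and NK cells or of adipocytes in the immunoproteasome values was not tested.

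**Figure D5:**
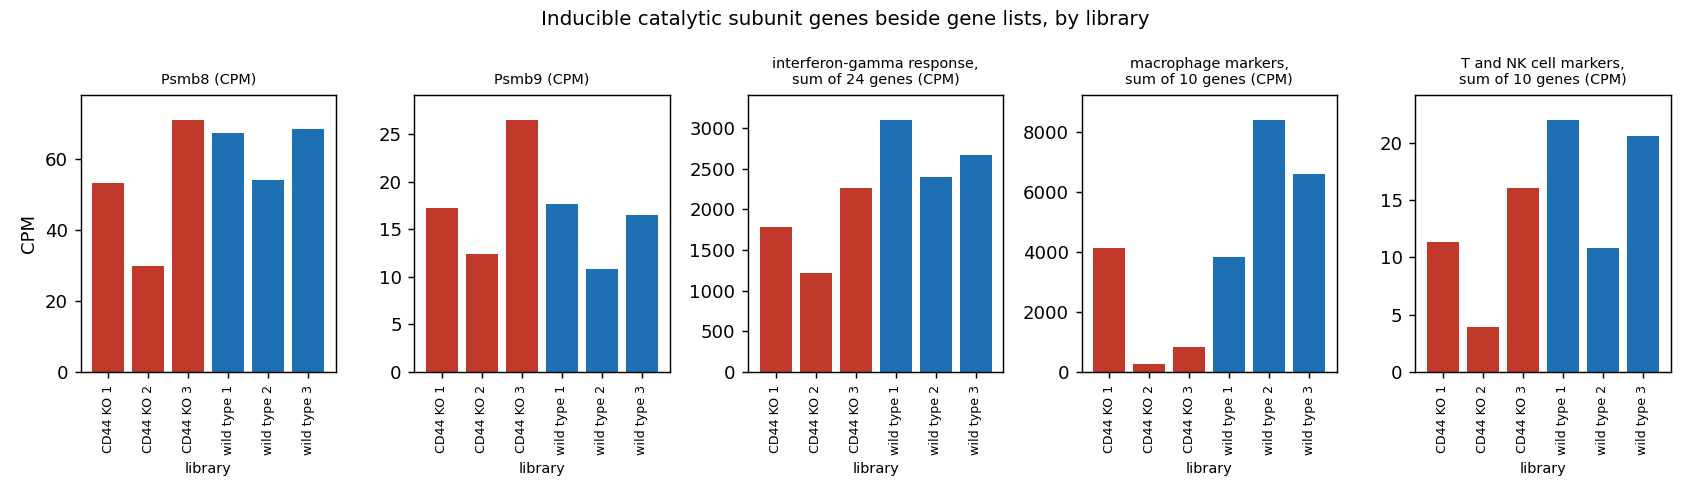
CPM of Psmb8, of Psmb9 and of 3 summed gene lists, as 1 bar per library, CD44 KO left of wild type, each panel on its own axis from 0. In the interferon-gamma response sum, Cd74 is the member of highest mean CPM in both genotypes. Psmb8 and Psmb9 are highest in CD44 KO replicate 3, where the macrophage sum is 842 CPM, and within each genotype they and the T and NK cell sum are lowest in replicate 2.

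Proteasome genes that the symbol pattern misses also gave 0 calls by edgeR. Of 20 subunits and factors of this kind 19 were tested, with 12 negative, 7 positive and a median log2 fold change of -0.10. Zfand2a, whose product binds the proteasome under arsenite stress, had 44.9, 27.1 and 32.9 CPM in CD44 KO and 52.4, 92.1 and 69.9 CPM in wild type, with log2 fold change -1.03, SE 0.28 and edgeR adjusted p 0.0836. Uchl5, a deubiquitinase gene of the regulatory particle, stood at -0.52. Ngly1, whose product strips glycans from misfolded proteins, and Ubqln1, which shuttles ubiquitin-tagged proteins, stood at 0.51 and 0.41. These 4, named as those of lowest p, had no overlap, with edgeR adjusted p of 0.0836 to 0.142. Among the 19 tested, 2 were lower and 2 higher without overlap, where the shares of all genes tested were 18.1% and 19.7%.

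Among 15 regulators of proteasome gene transcription 0 passed, and the median log2 fold change was 0.088. Nfe2l1, the factor known to induce proteasome genes when the complex is inhibited, had 470.5, 449.8 and 492 CPM in CD44 KO and 551, 399 and 378 CPM in wild type, with log2 fold change 0.088, SE 0.21 and edgeR adjusted p 0.792, and its relative Nfe2l2 stood at -0.33 (both chosen after their values were seen). Maff, a small partner of these factors, had 7.24, 6.43 and 6.54 CPM in CD44 KO and 11.1, 12.1 and 16.9 CPM in wild type, with log2 fold change -0.99, SE 0.23 and edgeR adjusted p 0.0662. Foxo1 and Foxo4 stood at 0.95 and 0.59, higher in CD44 KO without overlap, and Nfya, of the factor that binds CCAAT, at -1.12 with overlap. Their edgeR adjusted p were 0.104, 0.107 and 0.125.

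Ubiquitin and E1 enzyme genes gave 0 calls among 10 and a median of -0.091. Uba6, an E1 enzyme gene, stood at -1.01 (edgeR adjusted p 0.0993), the ubiquitin genes Ubb and Rps27a at 0.45 and -0.34, and Nploc4 at -0.18. Heat shock and proteotoxic stress genes gave 0 calls among 17 and a median of -0.045. Sqstm1, whose product carries ubiquitin-tagged cargo to autophagy, had 389.7, 324 and 318 CPM in CD44 KO and 577, 641 and 629 CPM in wild type, with log2 fold change -0.84, SE 0.18 and edgeR adjusted p 0.0570. The chaperone genes Hsph1 and Hsp90aa1 stood at -1.49 and -0.63 and the stress factor gene Xbp1 at 0.80, all without overlap, with edgeR adjusted p of 0.0592, 0.0907 and 0.0870. Among these 17 stress genes, 4 were lower and 3 higher without overlap, where the shares of all genes tested were 18.1% and 19.7%.

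The promoters of both kinds of gene are known to answer to different factors, so RefSeq windows (GRCm38.p6), found for 43 of the 51 genes, were searched for 5 short motifs on both strands over the 250 bases before the start. TGACNNNGC, the strict antioxidant response element, which Nfe2l1 and Nfe2l2 bind, was in 5 of 34 constitutive genes (14.7%), 0 of 5 immunoproteasome genes and 11.5% of all 27025 genes. Its looser form TGANNNNGC, which contains every strict match, was in 13 of 34, 2 of 5 and 38.7%. CCAAT was in 12 of 34, 1 of 5 and 37.5%. The interferon-stimulated element, GAAA repeated after any 2 bases, was in 3 of 34, 0 of 5 and 3.46%. The gamma-activated site TTCNNNGAA was in 1 of 34, 1 of 5 and 8.13%.

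The constitutive stretches with a strict antioxidant element are shown because they include those of the active-site genes Psmb5 and Psmb6, and the Psmb8 stretch because it holds the 1 interferon motif found in an immunoproteasome gene. Each runs 5′ to 3′ on the strand of its gene, with the match, read on either strand, in capitals. The stretches of Psmb8 and Psmd9 themselves lie inside the longer GENCODE span of the gene, before a RefSeq start further in. The stretches of the other genes lie outside that span.
Psmb5, chr14:54618026-54618103, minus strand: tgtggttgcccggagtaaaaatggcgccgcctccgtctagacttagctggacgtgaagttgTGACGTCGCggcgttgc
Psmb6, chr11:70525277-70525356, plus strand: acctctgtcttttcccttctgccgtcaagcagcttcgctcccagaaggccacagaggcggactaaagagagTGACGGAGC
Psmc6, chr14:45329574-45329653, plus strand: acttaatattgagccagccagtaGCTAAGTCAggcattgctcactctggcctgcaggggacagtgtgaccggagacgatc
Psmd12, chr11:107479278-107479357, plus strand: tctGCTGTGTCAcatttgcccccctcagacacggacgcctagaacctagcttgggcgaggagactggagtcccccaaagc
Psmd9, chr5:123228090-123228169, plus strand: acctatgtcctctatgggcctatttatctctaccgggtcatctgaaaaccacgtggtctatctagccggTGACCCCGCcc
Psmb8, chr17:34198088-34198117, plus strand: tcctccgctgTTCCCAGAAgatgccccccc

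The genes with a strict element had log2 fold changes of differing sign, -0.59 for Psmb5, -0.38 for Psmc6, -0.37 for Psmd12, -0.29 for Psmb6 and 0.20 for Psmd9. The sign of Psmd9 depended on the measure, with -0.029 by limma on log2(FPKM + 1). A match describes letters and is not a shown binding site. Where a window has no match, these letters are not in it, and nothing follows about the factor.

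The remaining genes were near the limit of detection or outside the complex. Psmb11 had 0 counts in all libraries and was not tested. Psma8 had 24, 7 and 7 expected counts in CD44 KO and 24, 36 and 28 in wild type, with log2 fold change -1.06, SE 0.60 and edgeR adjusted p 0.264. Psmc3ip had 29.2, 22.5 and 20.9 expected counts in CD44 KO and 26.6, 30.5 and 66.3 in wild type. Psme3ip1 had 37.9, 37.5 and 46.7 CPM in CD44 KO and 43.9, 43.3 and 44.6 CPM in wild type. The genotypes overlapped for all 3 genes by CPM. By FPKM they did not overlap for Psme3ip1, with 15.01, 14.38 and 18.33 FPKM in CD44 KO and 21.66, 20.95 and 21.24 FPKM in wild type. The log2 fold change of Psme3ip1 was -0.11 by edgeR and -0.42 in the authors' deposited table.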

How the data were processed

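The authors deposited expected counts and FPKM per gene for the 6 libraries, each taken here as 1 mouse and placed by its labelled genotype. Per the labels' protocols, mRNA was enriched with oligo(dT) beads and sequenced on an Illumina instrument. HISAT2, StringTie 1.3.1, RSEM and DESeq2 are the tools listed, without roles, in the submitters' processing notes, and build, annotation and strandedness were not given in the sources used. The expected counts in the deposited table are unscaled estimates, of which 7.57% to 8.30% per library were not whole. The FPKM were scaled by the authors for transcript length and library size. The authors' deposited comparison holds a log2 fold change, p-values and an FDR per gene, and the tool behind it was not named.

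Counts were rounded and fitted with edgeR 4.0.16 in R 4.3.3, using filterByExpr, TMM, robust glmQLFit and glmQLFTest, and p-values were adjusted by Benjamini-Hochberg over 13829 genes. Each SE was taken from the F statistic, as the size of the log2 fold change over its square root, and 95% intervals use 4 degrees of freedom. The edgeR p-values use more degrees of freedom, drawn from all genes, so an interval can include 0 where p is under 0.05. Psma5 is a case, with an edgeR p of 0.0408 before adjustment and an interval of -0.81 to 0.036. Each p-value sets a difference against the spread between these libraries, which the labels do not say came from separate mice. Ratios of FPKM used no pseudocount. Positions are from GENCODE M21 (GRCm38), matched by identifier, and 14 of the 51 genes overlap another listed gene there.

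Values in every library are given for the immunoproteasome genes, Psmb5, Psmb6, Psmb7, Psme3 and, in each role, the 3 genes of highest and 3 of lowest log2 fold change. From each other list, called genes and up to 4 of lowest p were named, and genes added after their values were seen are marked. The genes, lists and tests were chosen with earlier results of these data known. Alternatives were RLE size factors, 2 other filters, DESeq2 1.42.0, limma 3.58.1 on log2(FPKM + 1), the replicate number as a block, and leaving out each library.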

Additional observations from a re-analysis of the deposited data

How the results depend on the processing

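Of the 50 proteasome genes tested, 36 kept the sign of their log2 fold change in all 12 alternative fits and 14 changed it in at least 1. DESeq2 called 6 proteasome genes lower, all 6 constitutive, and the other alternatives called 0. Over all genes (240 higher and 122 lower by edgeR), DESeq2 called 1478 higher and 1441 lower, no filter 145 higher, and fits without 1 library 0 to 1007 higher and 0 to 1363 lower. Over the other lists together (0 higher, and 1 lower, the progenitor marker Pi16), DESeq2 called 9 higher and 23 lower, limma 2 lower, RLE size factors 0 lower, no filter 0 lower, and fits without 1 library 0 to 4 higher and 0 to 24 lower. Same-numbered libraries did not deviate together over all genes (r -0.32, -0.22 and -0.018), and their numbers were not used as pairs in the main fit. These correlations cannot show that the libraries were unpaired. With the replicate block edgeR called 0 higher and 0 lower over all genes, 0 over the other lists and 0 proteasome genes. Cd44 had an adjusted p over 0.05 in 3 fits, without CD44 KO replicate 3 (0.0785), without wild type replicate 3 (0.122) and with the block (0.0543). Psma7 stood at -0.013 with RLE size factors, -0.011 with no filter, -0.025 by DESeq2, -0.066 by limma and -0.017 with the block. Psmd10 stood at -0.12 by limma and -0.090 with the block. By limma Psmb4, Psmc1 and Psmd9 stood at -0.0078, -0.017 and -0.029, and with at least 1 CPM in 3 libraries Psmb3 at 0.0019. Fits without 1 library ran from -0.21 to 0.11 for Psma7, -0.15 to 0.12 for Psmb3, -0.064 to 0.13 for Psmb4, -0.016 to 0.55 for Psmb9, -0.014 to 0.11 for Psmc1, -0.13 to 0.018 for Psmc5, -0.48 to 0.27 for Psmd10, -0.14 to 0.044 for Psmd11, -0.11 to 0.034 for Psmd3, -0.15 to 0.0015 for Psmd5, -0.31 to 0.031 for Psme2, -0.26 to 0.052 for Psmg2 and -0.081 to 0.26 for Psmg3. Ratio differences without 1 library ran from -0.15 to 0.45 for Psmb8 to Psmb5, from -0.035 to 0.25 for Psme2 to Psme3, from 0.31 to 0.80 for Psmb9 to Psmb6, from -0.41 to -0.032 for Psmb10 to Psmb7 and from 0.32 to 0.50 for Psme1 to Psme3. The cause of these changes was not tested. With 3 libraries a genotype, the 95% interval of Psmb8 holds changes of over 2-fold.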
